A study of Mus musculus with 8 samples.

Results

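The synaptic vesicle and release machinery was followed here as 39 genes, all found among the 31053 genes counted in single cells of the prefrontal cortex (PFC) and striatum of Setd1a+/- and wild-type (WT) mice. The genes were listed by function, covering vesicle membrane proteins, the fusion apparatus, the active zone and the endocytic proteins, with no threshold on a measured value, though the list was drawn up with earlier results of these data known. Setd1a encodes a histone H3 lysine 4 methyltransferase, and the mice carry 1 allele disrupted by CRISPR-Cas9 at exon 15 on a C57BL/6N background. All animals were male and untreated, and the labels give their age as 8 to 10 weeks while the methods give an older one. Each tissue had 4 libraries, 2 of WT and 2 of Setd1a+/- mice, and each library pooled the cells of 2 mice, so that the spread given is that between pools.

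Release works as a cycle. Vesicles filled with transmitter dock at the active zone, a scaffold built from Bassoon, Piccolo, RIM, ERC and Munc13 proteins, and fuse when the vesicle SNARE synaptobrevin (Vamp) zips together with the membrane SNAREs syntaxin (Stx1a) and SNAP-25 (Snap25). Complexins and Rab3 proteins tune that step, NSF with its SNAP adaptors takes the spent SNARE complex apart, and dynamin, amphiphysin, endophilin and synaptojanin retrieve the membrane. Many of these proteins exist as paralogs, and neurons are known to differ in which of them they use.

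The libraries held between 15154268 and 26277553 UMIs (unique molecular identifiers, which count captured transcript molecules), of which 5999666 to 13521114 lay in the 1508 to 4361 annotated cells of each. Levels are given as CPM, the UMIs of a gene per 1000000 UMIs that all cells of 1 type in 1 library hold. At most 24 cell barcodes were shared by any pair of libraries. The authors' cell types were checked against marker genes, and in the PFC the excitatory neurons carried 750.3 to 997 CPM of 3 excitatory markers (Slc17a7, Neurod6 and Neurod2) against at most 25.9 CPM in the inhibitory neurons. The striatal cells annotated as inhibitory went partly against their label, with 251 to 379 CPM of the same markers, whereas D1 and D2 medium spiny neurons (MSNs, the projection neurons of the striatum) had at most 3.50 CPM. Of those 821 striatal cells, 608 had a UMI of Gad1, Gad2 or Slc32a1 and none of the excitatory markers, and are called GABA-marked below. Another 153 had excitatory markers and no GABA marker, 45 had both and 15 had neither. In the PFC, 275 of 298 inhibitory cells were GABA-marked and 0 had excitatory markers alone. A UMI of a GABA marker was found in 79.5% of the striatal inhibitory cells (median depth 4787 UMIs), but also in 13.8% of the endothelial cells and 37.6% of the microglia there (medians of 2379 and 2285 UMIs), which should lack these genes. An excitatory-marker UMI was found in 24.1% of the inhibitory cells and in 0.615% and 0.653% of D1 and D2 MSNs (medians of 3167 and 3422 UMIs). The split by single UMIs is thus approximate, and the part of free RNA in it was not tested. The comparison of MSNs with striatal inhibitory cells is given with and without the cells that were not GABA-marked.

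The whole machinery made up 1.39 to 1.49% of all UMIs in PFC excitatory neurons and 1.29 to 1.36% in PFC inhibitory neurons. D1 MSNs held 0.762 to 0.810%, D2 MSNs 0.721 to 0.776% and the striatal inhibitory cells 1.08 to 1.16% (0.932 to 0.996% in GABA-marked ones). The MSN libraries thus lay below every library of these other neuron classes. Striatal neural stem cells and neuroblasts, which are not counted as a neuron class here, held 0.103 to 0.118%. Snap25 (chr2:136713453-136782428 in mm10) alone gave 38.4% of the machinery's UMIs in PFC excitatory neurons and 26.6% in D1 MSNs, and Rab3a, the most abundant small GTPase of synaptic vesicles, came next in each neuron class. At the low end, Syn3, the rarest synapsin, had 1.42 to 3.21 CPM in PFC excitatory neurons and 3.31 to 7.49 CPM in D1 MSNs, a level at which few differences can be seen.

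**Figure D1:**
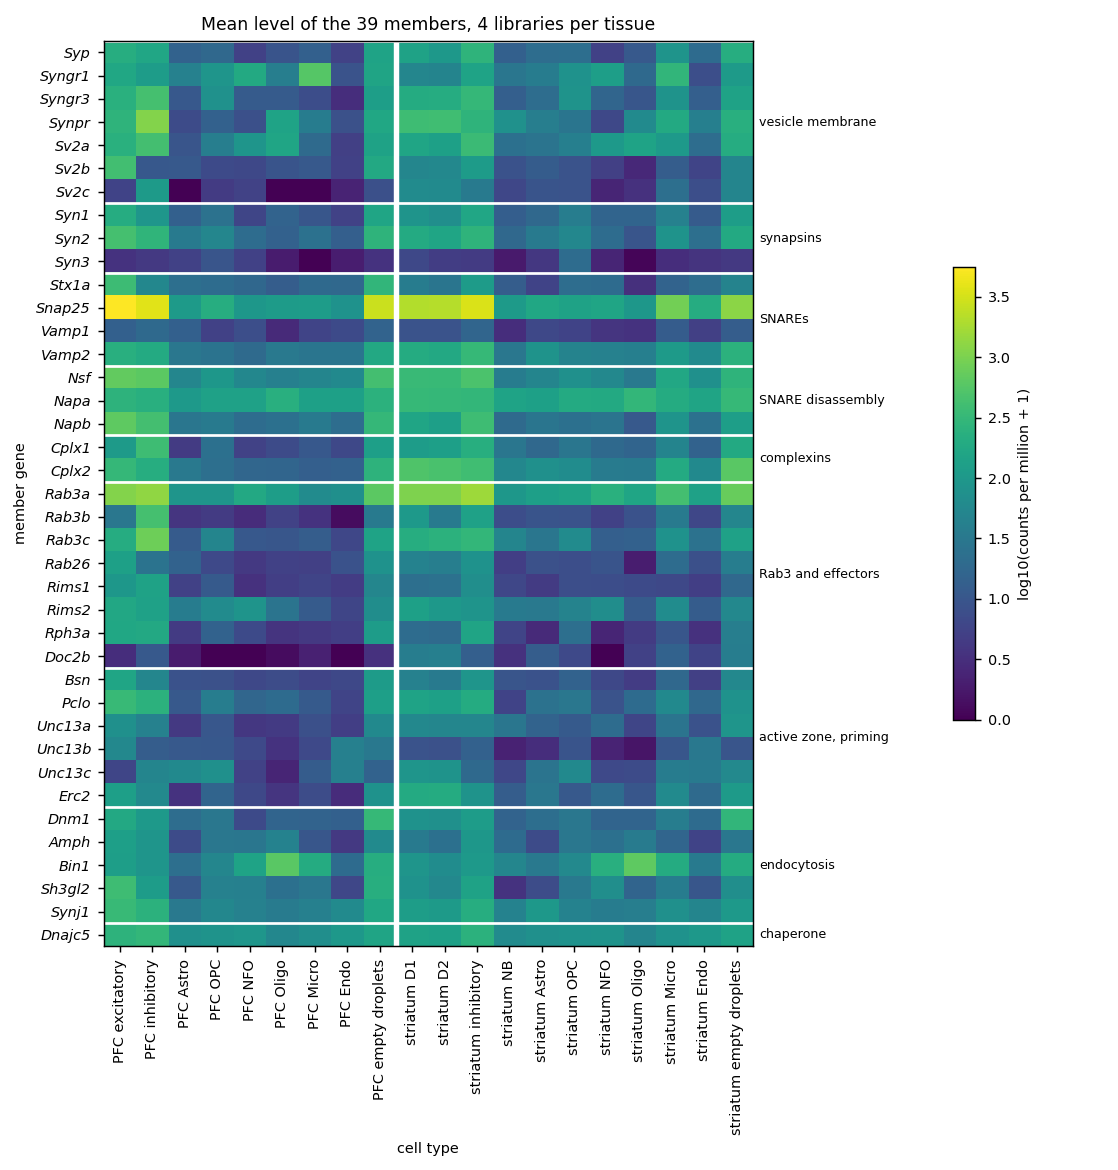
Mean level of each of the 39 members, as log10(CPM + 1) over 4 libraries, in every annotated cell type and in empty droplets, with rows grouped by role and columns by tissue (Astro, astrocytes, OPC, oligodendrocyte progenitor cells, NFO, newly formed oligodendrocytes, Oligo, oligodendrocytes, Micro, microglia, Endo, endothelial cells, NB, neuroblasts). Snap25 and Rab3a are brightest in the neurons, while Bin1 stands out in oligodendrocytes and Syngr1 in PFC microglia.

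Most members were neuronal in both tissues. Sums over neurons were compared with sums over the glial and endothelial cells of the same libraries by edgeR's quasi-likelihood test with the library as a block, and a gene was called at a false discovery rate (FDR) under 0.05 and a fold change over 2. Since cell types were drawn by the authors from these same counts, p-values between types are too small. The sizes and ranges depend on the same clusters and are given as a description. In the PFC, 34 of 39 members were higher in neurons, against 24% of all 13702 genes tested, and 1 was lower, against 27.3%. In the striatum 34 members were again higher in neurons, against 19.3% of 14282 genes, and 1 was lower, against 27.7%. The median member was 3.68 log2 units higher in PFC neurons and 2.82 units higher in striatal neurons, while the median over all genes lay at -0.03 and -0.02. The scaling of the fits (TMM) brings the median over all genes near 0 by design. Sv2b, a vesicle glycoprotein, showed the steepest difference in the PFC, with 347 to 391 CPM in neurons and 2.98 to 12.7 CPM in the other cells (log2 fold change 5.77, SE 0.25, FDR 5.74e-09). Snap25 followed at 5062 to 5863 against 66.8 to 194 CPM (log2 fold change 5.51, SE 0.23, FDR 5.53e-09). For both genes the libraries of neurons and of the other cells did not overlap. Napa, the ubiquitous SNAP adaptor, stayed under the fold threshold in both tissues at 0.59 and 0.64 log2 units, and so did Syngr1 at 0.64 and 0.63. The 1 member lower in striatal neurons was Bin1, an amphiphysin relative that curves membranes, at 75.9 to 92.9 against 99.5 to 305 CPM (log2 fold change -1.49, SE 0.21, FDR 0.000106).

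All 62 other genes listed for the pathway were found in the files, and 61 were tested in each tissue. In the PFC 31 were higher and 8 lower in neurons, and in the striatum 29 were higher and 9 lower. Those highest in PFC neurons included Sncb, which encodes beta-synuclein, at 5.39 log2 units. The ones lower in PFC neurons included Syngr2 and Sypl, relatives of synaptogyrin and synaptophysin found outside neurons, at -6.42 and -2.83 units, and Vamp3, the cellubrevin of general membrane traffic, at -3.60 units.

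A low level in a glial cell may be RNA set free by other cells, so each member was compared with the empty droplets of the same library, meaning unannotated barcodes with 1 to 100 UMIs. Between 29 and 36 of the 39 members, depending on the cell type, were below the empty droplets in all 4 libraries. In 7 pairs of gene and cell type the level was over 2 times that of the empty droplets in every library. These counts were not made over all genes, so they describe levels and do not set the members apart from other genes. Bin1 had 559.9 to 656 CPM in PFC oligodendrocytes against 133 to 271 CPM in empty droplets, and 453 to 823 against 181 to 213 CPM in the striatum. Its oligodendrocyte levels lay above those of PFC excitatory neurons (114 to 147 CPM) and of D2 MSNs (56.2 to 71.8 CPM). Syngr1, a vesicle membrane protein, had 476 to 688 CPM in PFC microglia, above the 75.5 to 265 CPM of excitatory neurons and 2.19 to 7.65 times the empty droplets. In striatal microglia it had 149 to 375 CPM and was not past 2 times the empty droplets in every library. Unc13c, the Munc13 form known from the cerebellum, had 61.3 to 95.9 CPM in PFC OPCs and 22.0 to 86.9 CPM in PFC astrocytes, where 1 library rested on 6 UMIs, against 8.67 to 22.2 CPM in empty droplets. It was the 1 member called lower in PFC neurons, at 7.58 to 10.1 against 28.4 to 34.2 CPM (log2 fold change -1.96, SE 0.16, FDR 8.9e-07). Unc13b, a priming factor of the same family, reached 26.6 to 36.4 CPM in striatal endothelial cells, where MSNs had 5.79 to 8.97 CPM, and Syn3 12.7 to 29.2 CPM in striatal OPCs on 44 UMIs in all. With empty droplets limited to 1 to 50 UMIs, 6 of the 7 pairs passed, without Unc13b. Striatal microglia stood apart from the other glia, with a median member at 0.543 times the empty droplets against 0.0994 times in PFC microglia, and they also carried 361 to 657 CPM of 2 MSN markers (Ppp1r1b and Rgs9). The part of those MSN transcripts in the microglial levels was not tested.

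Among the vesicle membrane proteins the neuron classes differed most in the SV2 family, glycoproteins that regulate release and serve as entry receptors of botulinum toxins. In PFC excitatory neurons Sv2b (chr7:75114894-75309262) had 376 to 425 CPM, and in PFC inhibitory neurons 4.44 to 14.3 CPM (log2 fold change 5.34, SE 0.19, FDR 1.74e-37). Sv2c (chr13:95954594-96132577) ran the other way, with 3.69 to 6.36 CPM in excitatory and 88.8 to 137 CPM in inhibitory neurons (log2 fold change -4.52, SE 0.22, FDR 1.56e-29). For both genes the ranges of the classes were far apart. MSNs had both forms side by side, with 50.8 to 55.3 CPM of Sv2b and 52.7 to 72.5 CPM of Sv2c. As shares of the family's UMIs, Sv2b was 62.8% and Sv2c 0.713% in PFC excitatory neurons, 1.80% and 20.7% in PFC inhibitory neurons, and 19.0% and 23.1% in D1 MSNs. Sv2a, the widely expressed form, was 36.5%, 77.5% and 57.9% in the same classes. A 3′ UMI is counted once per molecule whatever its length, so the shares compare paralogs apart from differences in capture.

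The bases just before the most upstream start site of Sv2b and of Sv2c are shown because this pair gave the largest opposite differences between the PFC classes. The windows are chr7:75309263-75309512 and chr13:96132578-96132827 of RefSeq's GRCm38.p6 annotation, 250 bases each, written 5′ to 3′ on the minus strand that carries both genes. Capitals mark the letters GGGCGG (the GC box bound by Sp1) or TATAAA where a window holds them on either strand.
Sv2b: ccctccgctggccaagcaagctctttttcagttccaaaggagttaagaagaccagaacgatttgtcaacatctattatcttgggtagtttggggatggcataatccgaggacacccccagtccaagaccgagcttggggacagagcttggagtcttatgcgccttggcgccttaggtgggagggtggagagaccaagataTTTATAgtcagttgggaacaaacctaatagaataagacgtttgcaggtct
Sv2c: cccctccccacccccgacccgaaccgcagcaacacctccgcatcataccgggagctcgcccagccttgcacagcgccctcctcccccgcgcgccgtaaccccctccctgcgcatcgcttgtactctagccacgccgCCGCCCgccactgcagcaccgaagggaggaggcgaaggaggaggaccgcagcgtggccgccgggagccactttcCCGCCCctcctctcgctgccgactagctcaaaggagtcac
The Sv2b window held 1 TATAAA and 0 GC boxes, and the Sv2c window 0 TATAAA and 2 GC boxes. The TATAAA of Sv2b reads on the strand opposite to the gene, and so do the GC boxes of Sv2c. The annotation lists 4 starts for Sv2b and 1 for Sv2c, and the other Sv2b windows are not shown. A GC box was found in 32.7% of all 32851 windows of the table and in 53.8% of the 39 windows that belong to the 30 members matched, and TATAAA in 12.4% and 7.69%. These letter matches are a description, and no binding was measured.

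Synpr (synaptoporin, chr14:13284780-13616340), a synaptophysin relative, differed by class and by layer. It had 697 to 1595 CPM in PFC inhibitory and 162 to 337 CPM in PFC excitatory neurons (log2 fold change -1.97, SE 0.09, FDR 5.77e-32). Within the excitatory neurons it had 507 to 889 CPM in superficial-layer and 70.1 to 172 CPM in deep-layer cells (log2 fold change 2.52, SE 0.14, FDR 3.28e-15). The superficial SL-Cux2 subtype had 582 to 988 CPM and the deep DL-Foxp2 subtype 0.972 to 12.6 CPM, while DL-Etv1, at 236 to 317 CPM, was the deep subtype with the highest level. Syngr3, another vesicle membrane protein, was lower in PFC excitatory neurons by less than the fold threshold, at -0.86 log2 units.

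Over all members, 8 of 38 tested were called higher in PFC excitatory than inhibitory neurons, against 10.3% of the 11255 genes tested, and 7 lower, against 7.34%. The 8 higher ones spanned several roles. Besides Sv2b they were the SNARE Stx1a (chr5:135023482-135051100) at 255 to 447 against 35.5 to 72.8 CPM (2.87, SE 0.14), Rab26, a vesicle GTPase linked to autophagy (2.38, SE 0.19), the priming factor Unc13b (2.26, SE 0.27), the endophilin Sh3gl2 (1.72, SE 0.11), the active zone scaffold Bsn (1.54, SE 0.15), the vesicle-clustering synapsin Syn1 (1.19, SE 0.13) and the active zone protein Erc2 (1.13, SE 0.15), all in log2 units. Syn1 was the 1 among them whose libraries overlapped between the classes, with 121 to 291 against 44.4 to 159 CPM, and it lost its call when the library block was left out, at 1.24 log2 units. Those lower in excitatory neurons were Sv2c, Rab3b (-3.86, SE 0.13), Unc13c (-3.35, SE 0.29), Doc2b, a calcium sensor of spontaneous release (-2.30, SE 0.60), Synpr, Rab3c (-1.95, SE 0.08) and Cplx1 (-1.79, SE 0.10). The highest FDR of these 15 calls by edgeR was 0.00145, that of Doc2b. With GABA-marked inhibitory cells alone, these 15 members were called in the same direction, against 10.3% of all genes called higher and 7.29% lower. Of 60 other pathway genes, 7 were higher and 5 lower in excitatory neurons, led by Cplx3, the complexin best known from the retina, at -7.08 log2 units.

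The Rab3 proteins sit on vesicles and bind RIM and rabphilin, and PFC inhibitory neurons had more of the less abundant forms. Rab3b (chr4:108879063-108943324) had 400.3 to 482 CPM in inhibitory and 11.1 to 46.4 CPM in excitatory neurons, and Rab3c 621 to 1000.2 against 159.5 to 238 CPM. Rab3a had 1291 to 1466 and 1078 to 1205 CPM, a difference of -0.25 log2 units. The share of Rab3a was 82.5% in excitatory and 51.9% in inhibitory neurons of the PFC, and 76.8% in D1 and 78.3% in D2 MSNs. For the complexins, which clamp and trigger the SNARE complex, Cplx1 made up 64.6% (40.3 to 81.5% over libraries) in PFC inhibitory neurons and 27.0% (21.8 to 38.8%) in excitatory neurons. In D1 MSNs it was 18.5% and in D2 MSNs 21.7%, below both PFC classes on average. Of the Munc13 forms, which prime vesicles, Unc13c was 3.87% in PFC excitatory neurons and 57.9% in D1 MSNs, and Unc13b 40.7% and 5.25%. Rims2 took 65.3% of RIM counts in PFC excitatory neurons and 85.4% in D1 MSNs, and Napb, the neuronal SNAP, 71.1% and 33.2% of the SNAP adaptors. These shares are given without a test.

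**Figure D2:**
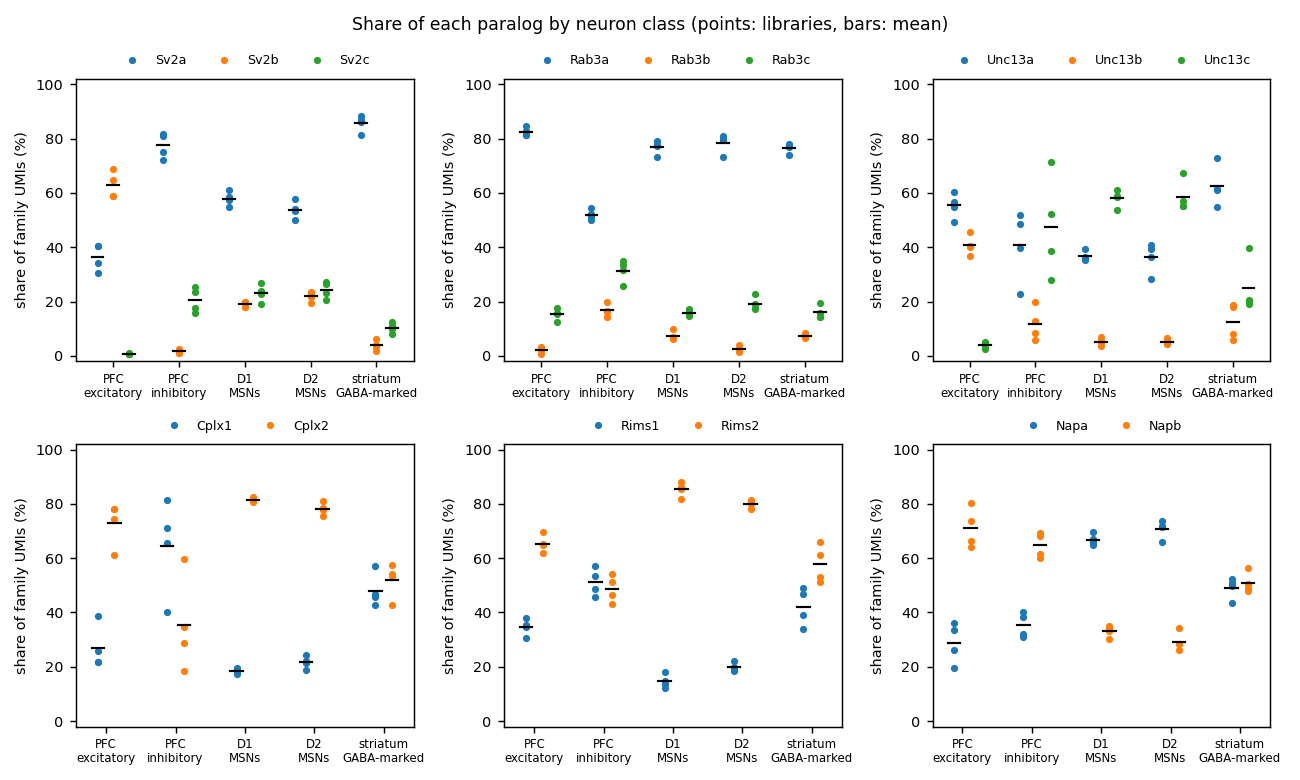
Share of each paralog in the UMIs of its family, in percent, for the SV2, Rab3, Munc13, complexin, RIM and SNAP families (1 panel each) in PFC excitatory and inhibitory neurons, D1 and D2 MSNs and GABA-marked striatal cells, with points for the 4 libraries of a tissue and bars for their mean. Sv2b leads in PFC excitatory neurons at 62.8% and is at 1.80% in PFC inhibitory neurons, and Unc13c is the leading Munc13 form in D1 and D2 MSNs.

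PFC excitatory neurons and striatal MSNs were compared over 8 libraries, with genotype as a covariate. Tissue, class and dissociation cannot be told apart in this comparison. Of 39 members 17 were higher in PFC excitatory neurons, against 13.8% of 12154 genes, and 4 lower, against 10.5%. The median member was 0.73 log2 units higher in the excitatory neurons, while the median over all genes, brought near 0 by the scaling, lay at 0.00. Stx1a had the largest positive difference, at 255 to 447 against 24.7 to 37.1 CPM (log2 fold change 3.41, SE 0.23, FDR 1.97e-06). Rph3a, the Rab3 effector rabphilin, followed at 85.5 to 225 against 15.0 to 26.8 CPM (log2 fold change 3.02, SE 0.32, FDR 4.09e-05). Then came Sv2b (2.82, SE 0.11), Unc13b (2.69, SE 0.15), Sh3gl2 (2.31, SE 0.11), the endocytic Amph (2.04, SE 0.16), Napb (2.03, SE 0.11), the RIM protein Rims1 (1.94, SE 0.14), Bsn (1.88, SE 0.17), Syngr1 (1.70, SE 0.37), Rab26 (1.56, SE 0.21) and the phosphatase Synj1, which uncoats vesicles (1.41, SE 0.11), all in log2 units. The other members called higher were Syn1, Snap25, Syn2, Pclo and Dnm1, at 1.10 to 1.34 log2 units. Dnm1, the neuronal dynamin, was the 1 with overlapping ranges, 80.4 to 231 against 72.5 to 86.7 CPM, and without the PFC WT or the PFC Setd1a+/- library of replicate 2 it stood at 0.95 and 0.80 log2 units, under the fold threshold. Higher in MSNs were Doc2b (chr11:75768966-75796049) at 35.4 to 44.8 against 0.975 to 3.12 CPM (-4.39, SE 0.23), Unc13c (chr9:73479422-73968966) at 74.7 to 94.8 against 3.97 to 6.62 CPM (-4.18, SE 0.17), Sv2c (-3.88, SE 0.16) and Rab3b (-1.42, SE 0.33), with no overlap in any of them. For Rab3b this held for D1 and D2 MSNs summed, at 52.3 to 98.1 against 11.1 to 46.4 CPM. D2 MSNs alone overlapped the excitatory neurons in Rab3b, by the D2 range given below. Among 59 other pathway genes 12 were higher in excitatory neurons and 2 lower, with Cadps2, the vesicle priming factor CAPS2, at 4.51 log2 units.

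Within the striatum, MSNs were set against the cells annotated as inhibitory. Here 4 of 39 members were higher in MSNs, against 7.73% of 11395 genes, and 9 lower, against 11.1%. The calls of Unc13c (2.30, SE 0.15), Doc2b (1.74, SE 0.16) and Erc2 (1.31, SE 0.09) were kept when the inhibitory cells were limited to GABA-marked ones, at 2.48, 1.29 and 1.84 log2 units. Among the lower ones, Rph3a (-2.96, SE 0.12), Amph (-1.58, SE 0.11), Rims1 (-1.50, SE 0.13), Syngr1 (-1.49, SE 0.08) and Sv2a (-1.15, SE 0.06) were kept too, at -2.69, -1.45, -1.19, -1.23 and -1.21. Stx1a and Bsn were not, since their differences of -1.71 and -1.08 became -0.09 and -0.17. Stx1a had 269.8 to 315 CPM in the 153 striatal cells with excitatory markers alone, 31.4 to 42.3 CPM in the GABA-marked cells and 24.7 to 37.1 CPM in MSNs. Napb, Syp and Sv2c fell under the threshold as well, from -1.26, -1.05 and 1.01 to -0.94, -0.71 and 0.59. Sv2b turned its direction, from -0.97 against all inhibitory cells to 1.87 against the GABA-marked ones, which had 8.14 to 24.4 CPM where the excitatory-marked cells had 296 to 356 CPM. Cplx1 (-1.06), Rab3b (-1.06), Vamp1, a synaptobrevin (-1.04), and Sv2b passed the threshold in the GABA-marked comparison and not in the other, and that comparison called 4 members higher and 8 lower in MSNs, against 9.36% and 10.7% of all genes. The calls of Syp, Bsn and Sv2c lay close to the fold threshold: without WT replicate 1, Syp stood at -0.98 and Sv2c at 0.91, and without Setd1a+/- replicate 2, Bsn stood just under the threshold. Sv2c was also not called by DESeq2, with library sizes alone or with no library block, at 0.91 to 0.99, and Syp not with no filter on low counts. Of 60 other pathway genes 12 were lower in MSNs than in all inhibitory cells, Cplx3 again the lowest at -7.41 log2 units, and against GABA-marked cells 11 of 57 were lower and 1 higher, with Cplx3 at -4.68.

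**Figure D3:**
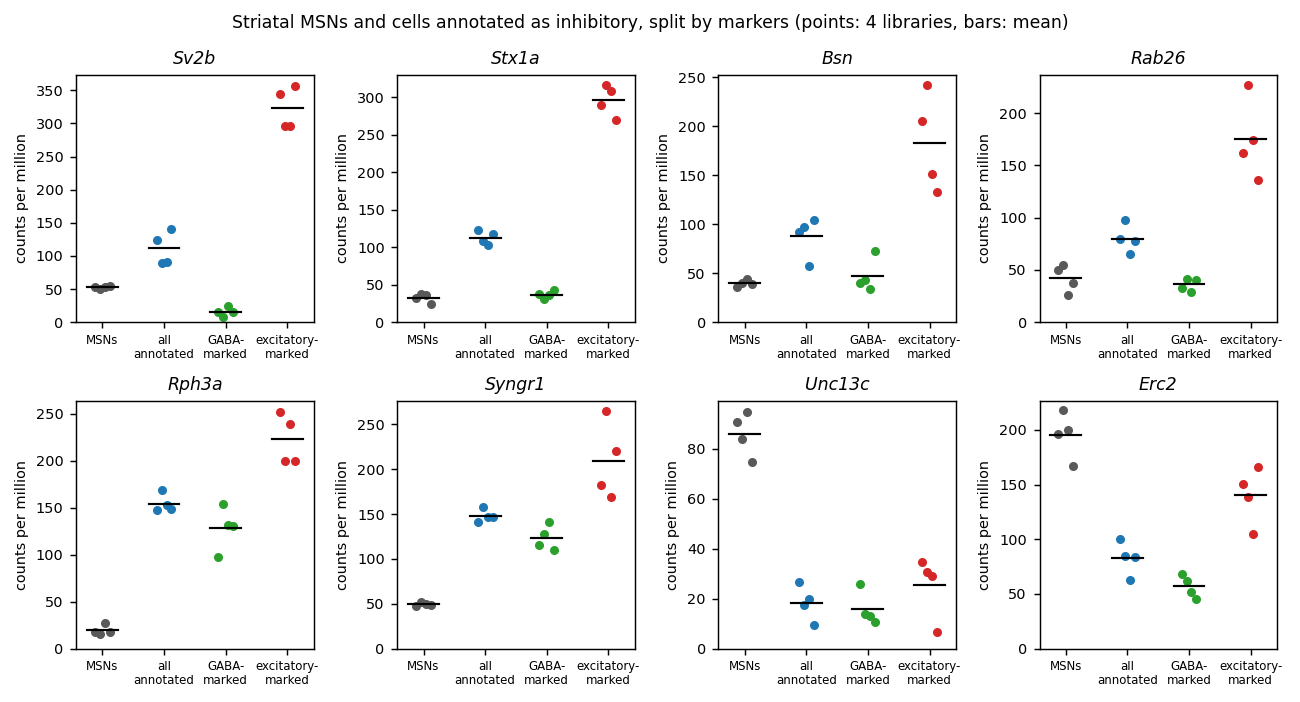
CPM of 8 members in striatal MSNs, in all striatal cells annotated as inhibitory, and in those cells split into GABA-marked and excitatory-marked ones, with points for the 4 libraries and bars for their mean. For Sv2b, Stx1a, Bsn and Rab26 the cells annotated as inhibitory sit between a high excitatory-marked and a low GABA-marked level, while Rph3a and Syngr1 are above the MSNs in both.

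D1 and D2 MSNs differed by less than 2-fold in all of the 39 members but Rab3b. Rab3b was the 1 called, with 77.8 to 128 CPM in D1 and 16.1 to 50.8 CPM in D2 MSNs (log2 fold change 1.57, SE 0.10, FDR 1.93e-58), against 1.72% of 10989 genes called higher in D1, and 0 were lower, against 0.592% (6 members lower at an unadjusted p under 0.05, 0 called by DESeq2). In either direction 18 of the 39 members had an unadjusted p under 0.05, and so had 2498 of the 10989 genes. Rab3b took 7.37% of Rab3 counts in D1 and 2.49% in D2 MSNs. At any fold 14 members passed the FDR, against 12.9% of all genes, and 1 with no library block, against 2.28%. Among the 14 was Syp at 129 to 160.1 against 82.3 to 111 CPM (0.49, SE 0.07). Of 56 other pathway genes, Cadps2 was the 1 called, at 3.05 log2 units.

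Between the layers of the PFC, 1 of 37 members (Synpr) was higher in superficial excitatory neurons, against 3.1% of 10959 genes, and 6 were lower, against 3.22%. Those lower were Rab3b (-2.25, SE 0.22), Unc13c (-1.65, SE 0.46), Cplx1 (-1.33, SE 0.11), Sv2c (-1.31, SE 0.43), Cplx2 (-1.25, SE 0.11) and Rab26 (-1.11, SE 0.11), in log2 units. Cplx1 had 43.0 to 56.6 CPM in superficial and 118 to 146 CPM in deep-layer cells, with no overlap. Cplx2 (chr13:54371349-54383917) overlapped, at 83.6 to 266 against 224 to 443 CPM, and the superficial subtypes were far apart, with 20.4 to 74.2 CPM in SL-Cux2 and 274 to 566 CPM in SL-Myh7. The deep DL-Foxp2 subtype had the highest mean of Cplx2 (362 to 855 CPM) and of Rab26 (190.0 to 303 CPM). DL-Tshz2 had the highest level of Unc13b, 106 to 191 CPM against 51.8 to 83.2 CPM in SL-Myh7, the subtype next in order, and Sv2a made up 62.0% of its SV2 counts. Without the library block the layer test called 4 members, and Unc13c, Sv2c and Cplx2 were no longer among them at differences of -1.69, -1.32 and -1.19, while 1.93% of all genes were called higher and 2.21% lower. DESeq2 called 5, against 2.25% and 2.37%, without Unc13c (-1.81) and Sv2c (-1.31). The low Unc13c and Sv2c also lost their calls without WT replicate 2 (Unc13c at -1.26) or Setd1a+/- replicate 1 (Sv2c at -1.21), and Rab26 fell to -0.93 without the latter. Of 59 other pathway genes 1 was called, Cadps2 at -1.20 log2 units.

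The PFC libraries of replicate 1 and replicate 2 differed in some members whatever the genotype. In excitatory neurons 4 of 39 members were lower in replicate 1, against 4.32% of 11665 genes, and 0 were higher by edgeR and by DESeq2, against 0.557%, with 1 at an unadjusted p under 0.05. In either direction 14 of the 39 members had an unadjusted p under 0.05, and so had 2165 of the 11665 genes. Syp (synaptophysin, chrX:7638471-7653256), the classic vesicle marker, had 65.4 CPM in WT replicate 1 and 22.5 CPM in Setd1a+/- replicate 1, but 392 and 378 CPM in the replicate 2 libraries (10.5-fold, log2 fold change -3.39, SE 0.28, FDR 5.53e-07). Vamp2, the main synaptobrevin, had 163 and 91.5 CPM against 336 and 333 CPM in the same order of replicates (-1.55, SE 0.21, FDR 8.35e-05). Syngr1 (chr15:80091334-80119501) had 114 and 75.5 CPM against 265 and 227 CPM (-1.51, SE 0.18, FDR 3.94e-05), and Syn1 141 and 121 CPM against 291 and 286 CPM (-1.25, SE 0.18, FDR 0.000189). In each of these genes the replicates did not overlap. With 2 libraries on either side that says little, since Dnajc5 and Sv2b did not overlap either, at 1.01-fold each. The share of all genes without overlap was not counted. Dnm1, at 185 and 80.4 CPM against 231 and 227 CPM, was 2.00-fold lower and just short of the threshold. Rab3b went the other way, at 46.4 and 34.0 CPM against 28.0 and 11.1 CPM, and fell short of it as well (0.99, SE 0.24, FDR 0.0167). In all 9 members passed the FDR at any fold, against 7.33% of all genes, the others being Rph3a, Napa and Stx1a at -0.89, -0.79 and -0.73 log2 units. The same order of Syp was seen in PFC inhibitory neurons, with 60.0 and 15.5 CPM of Syp in replicate 1 and 317 and 261 CPM in replicate 2, and in the empty droplets, with 15.7 and 5.69 against 289 and 288 CPM. Striatal MSNs had 111 to 133 CPM of Syp in all 4 libraries. There 0 members were called between the replicates by edgeR and by DESeq2, against 0.997% of 11737 genes called higher and 0.341% lower. An unadjusted p under 0.05 was seen in 5 of the 39 members and in 2176 of the 11737 genes. The PFC levels of these 9 members are averages over unlike libraries, and what set the replicates apart was not tested. Without PFC WT replicate 1 and with no genotype covariate, 7 members were called lower, against 7.12% of all genes. Of 59 other pathway genes 7 were lower in replicate 1, led by the clathrin adaptor Ap2a1 at -5.28 log2 units and by Sncb at -2.40.

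**Figure D4:**
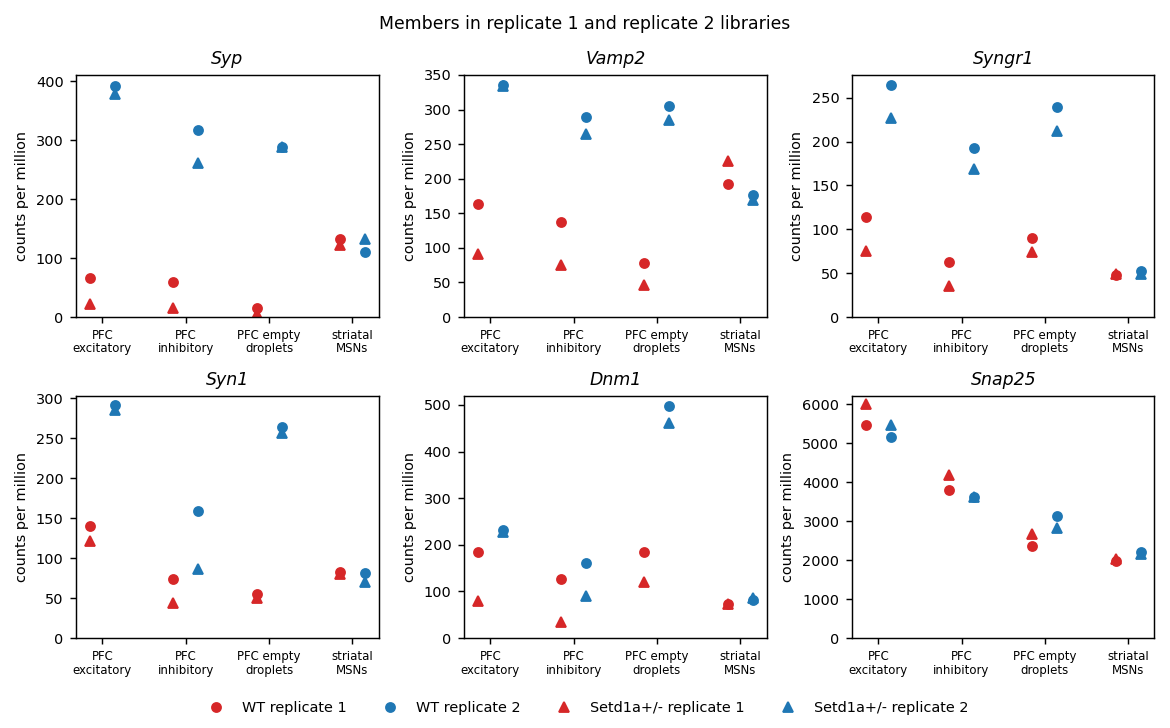
CPM of 6 members in each library, for PFC excitatory neurons, PFC inhibitory neurons, PFC empty droplets and striatal MSNs, with red points for replicate 1, blue for replicate 2, circles for WT and triangles for Setd1a+/-. Syp, Vamp2, Syngr1 and Syn1 are lower in both replicate 1 libraries of PFC excitatory neurons, while Syp in striatal MSNs stays between 111 to 133 CPM.

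Setd1a itself was low. In PFC excitatory neurons the WT libraries had 11.1 and 12.5 CPM and the Setd1a+/- ones 6.41 and 10.5 CPM (-0.49, SE 0.35, FDR 1.00 by edgeR), and in D2 MSNs 18.4 and 16.1 against 11.7 and 11.4 CPM (-0.52, SE 0.29, FDR 1.00). D1 MSNs had 14.1 and 15.7 against 13.0 and 13.6 CPM. In these classes every Setd1a+/- library was below both WT libraries, but the difference did not pass the test. D1 and D2 MSNs come from the same libraries, and the share of all genes without overlap was not counted.

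The level of each member in each cell type was next compared between genotypes. By edgeR, 0 of 163 tests of members over 8 PFC cell types were called at FDR under 0.05 and a fold change over 1.5 (5 at an unadjusted p under 0.05), and DESeq2 also called 0. Over all genes the share called was 0%, and 1.7% had an unadjusted p under 0.05. In the excitatory subtypes, of which 6 had the 10 cells per library required, 0 of 205 tests were called by edgeR and by DESeq2 (1 at an unadjusted p under 0.05), against 0% and 1.6% of all genes. In the 10 striatal types, with a fold change over 2 required, 0 of 265 tests were called by either tool (8 at an unadjusted p under 0.05), against 0.00544% and 2.62%. With the replicate as a block, which pairs the libraries, 0 members were called. In the PFC types 15 tests of members had an unadjusted p under 0.05 (11 lower in Setd1a+/-), against 4.7% of all tests. In the subtypes 15 had it (14 lower), against 4.33%, and in the striatal types 14 (11 lower), against 5.19%. The shares over all tests hold both directions, and none was taken by direction. The same members recur over types of the same 4 libraries, so these counts are not of independent tests. Single libraries moved these counts: without the Setd1a+/- library of PFC replicate 2, 8 of 209 tests in the subtypes and 2 of 188 in the PFC types were called, all of them lower in Setd1a+/-, against 0.561% and 0.179% of all tests, and this leaves a replicate 1 library alone in that group. Leaving out Setd1a+/- replicate 1 gave 1 call in the PFC types, against 0.0453% of all tests, and in the striatum leaving out WT replicate 1, Setd1a+/- replicate 1 or Setd1a+/- replicate 2 gave 1 call each, against 0.114%, 0.518% and 0.18%. With all libraries and no replicate block, 38 of the 39 members tested in PFC excitatory neurons differed by less than 2-fold, with a median of -0.08 log2 units. The exception was Doc2b, with 1.59 and 0.975 against 2.78 and 3.12 CPM (1.25, SE 0.52). In D1 and D2 MSNs all of the 39 and 38 members tested lay within 2-fold, with medians of 0.00 and -0.01. The median SE in these fits, which leave the pairing out, was 0.26 in PFC excitatory neurons and 0.16 in D1 MSNs.

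The members with an unadjusted p under 0.05 in a neuron class, in the fit with no replicate block, are given by value, WT libraries first, and all had an FDR of 1.00 by edgeR. Members under that p only with the replicate block are counted above but were not picked for this list. In PFC inhibitory neurons Synpr had 697 and 705 against 1400.2 and 1595 CPM (1.11, SE 0.24), the largest difference relative to its error in that class. Cplx1 stood at 492 and 438 against 319.5 and 261 CPM (-0.66, SE 0.25), the active zone scaffold Pclo at 340.1 and 281 against 211 and 192 CPM (-0.60, SE 0.26) and Dnm1 at 126 and 161 against 35.5 and 89.4 CPM (-1.25, SE 0.43). In each of these genes the genotypes did not overlap, though each library had only 48 to 100 such cells. The genes were picked by p-value, so non-overlap of 2 against 2 libraries adds little. The share of all genes without overlap was not counted. Rab26 (chr17:24527241-24534210) had lower values in Setd1a+/- libraries of D1 MSNs, 51.2 and 57.9 against 28.0 and 39.6 CPM (-0.63, SE 0.21), and of D2 MSNs, 48.0 and 48.7 against 22.7 and 35.4 CPM (-0.65, SE 0.25). Rab26 in PFC excitatory neurons had 148 and 144 against 156 and 79.5 CPM (-0.31, SE 0.31), with the genotypes overlapping. The DL-Foxp2 subtype, which had the highest mean of Rab26, made up 121 of 410 and 351 of 1189 excitatory cells in the WT libraries. In the Setd1a+/- libraries it made up 202 of 692 and 69 of 484, and the part of this mix in the Rab26 values was not tested. Rph3a in D1 MSNs had 15.0 and 15.7 against 28.5 and 20.2 CPM (0.68, SE 0.24). In striatal inhibitory cells Sh3gl2 had 154 and 182 against 99.8 and 136 CPM (-0.45, SE 0.20) and Synpr 186 and 264 against 236 and 395 CPM (0.55, SE 0.23), with overlap for Synpr. The cells with excitatory markers alone, 46 of 246 and 31 of 189 in WT and 25 of 138 and 51 of 248 in Setd1a+/- libraries, are part of those values. In GABA-marked cells, where no test was run, Sh3gl2 had 77.1 and 97.6 against 60.2 and 52.9 CPM and Synpr 175 and 302 against 309 and 438 CPM. For Syp in PFC excitatory neurons, where the replicates were unlike, the genotype estimate was -0.19, SE 1.33, and for Syngr1 it was -0.32, SE 0.65. With the replicate block they were -0.68, SE 0.26 (FDR 0.946) and -0.39, SE 0.18 (FDR 0.992), and both genes were lower in Setd1a+/- within each pair. Without the Setd1a+/- library of replicate 1, the Synpr difference in PFC inhibitory neurons passed the test at 1.24 log2 units, and without that of replicate 2, Dnm1 and Syp passed at -2.03 and -3.65. Each of these fits leaves 1 Setd1a+/- library, which is assumed to vary like the WT ones, and for Syp that library is of replicate 1, where the WT library was low as well.

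**Figure D5:**
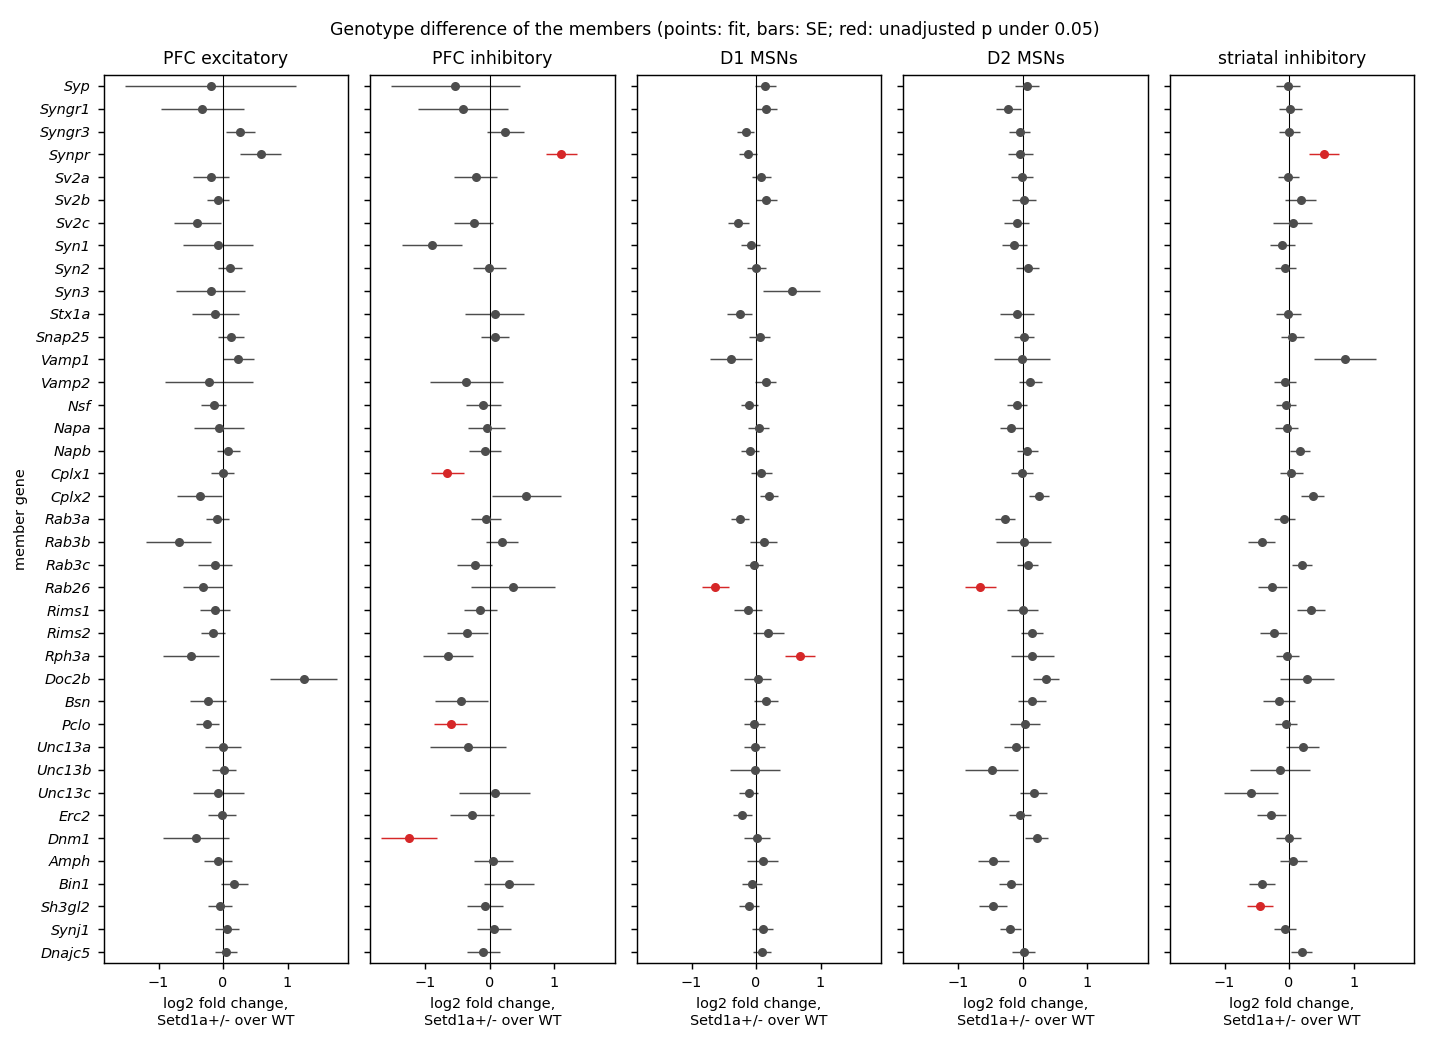
Log2 fold change of each member, Setd1a+/- over WT, in PFC excitatory and inhibitory neurons, D1 and D2 MSNs and striatal inhibitory cells, with points for edgeR estimates with no replicate block, bars for 1 SE and red for an unadjusted p under 0.05. The PFC excitatory points centre on a median of -0.08, in D1 MSNs on 0.00, and Syp in PFC excitatory neurons has an SE of 1.33.

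Whether the genotype difference itself varied between classes was tested as an interaction. Between PFC excitatory and inhibitory neurons 0 of 38 members passed an FDR of 0.05 by edgeR and by DESeq2 (7 at an unadjusted p under 0.05), against 0.0267% and 5.38% of all genes. The nearest was Cplx2, with 338 and 362 against 185 and 351 CPM in excitatory and 111 and 231 against 129 and 387 CPM in inhibitory neurons. The level of Cplx2 differed between excitatory subtypes, as did that of Synpr, and the part of the subtype mix in either interaction was not tested. The interaction of Cplx2 was -0.86 (SE 0.20, FDR 0.0866), and it passed with no filter on low counts (FDR 0.0251) and with GABA-marked inhibitory cells (FDR 0.00411). Without WT replicate 2 or Setd1a+/- replicate 1 the interaction was -1.44 and -1.13. A fit of that kind leaves 1 library in a genotype, which is assumed to vary like those of the other. Cplx1 had the opposite sign, 0.66 (SE 0.17, FDR 0.205), followed by Rab3b at -0.82 (SE 0.23, FDR 0.336) and Synpr at -0.51 (SE 0.14, FDR 0.336). In fits that leave 1 library in a genotype, Rab3b stood at -1.15 and -1.77 without the same libraries as Cplx2, and Synpr at -0.86 without WT replicate 1. Between D1 and D2 MSNs 0 of 39 members passed by edgeR and by DESeq2 (3 at an unadjusted p under 0.05), against 0.0819% and 4.47%. Between PFC excitatory neurons and MSNs 0 of 39 passed by either tool (1 at an unadjusted p under 0.05), against 0% and 1.54%. With the replicate block 0 members passed as well, and 7 had an unadjusted p under 0.05, against 4.05% of all genes.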

How the data were processed

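Single cells of PFC and striatum from 2 WT and 2 Setd1a+/- libraries per tissue were profiled by 3′ droplet RNA-seq with UMIs after papain digestion and a density gradient. The deposited values are UMI counts per gene and barcode, which the authors made with Cell Ranger 3.0.2 on mm10, and the authors' cell annotation, made with Seurat 3.2.0 after dropping cells under 800 genes or above 10% mitochondrial transcripts, was used for cell types and subtypes (versions from the submitters' processing notes). A deposited table of expression values for annotated cells was not used, because its gene column holds row numbers. No doublet caller was run here. Gene positions are those of mm10 with GENCODE vM21.

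Counts were summed per library and cell type, keeping types with at least 10 cells in every library, which left out the DL-Pou3f1 subtype. Genes were filtered by filterByExpr with a minimum count of 10, scaled by TMM and tested with edgeR 4.0.16 (quasi-likelihood, R 4.3.3), with Benjamini-Hochberg adjustment over all genes of a fit. Calls needed an FDR under 0.05 and a fold change over 1.5 for genotype in the PFC and over 2 elsewhere, and interactions needed the FDR alone. Contrasts between types of 1 tissue had the library as a block, and the replicate contrast had genotype as a covariate. SE was taken as the absolute log2 fold change divided by the square root of F. The fits were also run on simulated counts that held no replicate effect. That run cannot show how the genotype fits with no block fare when replicates differ. CPM in the text are scaled by the UMIs of the type in a library alone, with no TMM factor. Intervals are not given for levels, and the libraries of 1 group are pools of animals, so p-values of fits with no block measure the spread between pools. With the library as a block they measure how the difference between types varied across libraries.

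The members named in a comparison were those past the threshold (up to 12 per direction), for genotype those with an unadjusted p under 0.05 in a neuron class with no replicate block plus Syp, Syngr1, Rab26 and Setd1a, for replicates those at 2-fold or more (Dnm1, Rab3b, Rph3a, Napa and Stx1a, which lay under that, were named after their values were seen), and for glia those over 2 times the empty droplets in all 4 libraries. Subtypes and other genes named for their levels alone were chosen after their values were seen. Some genes of the marker and pathway lists are not reported here, and marker sums and the marker split of inhibitory cells were made without them. The members and lists were chosen with earlier results of these data known.

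Per the methods, each biological replicate held 1 sample of each genotype, so a replicate number pairs a WT with a Setd1a+/- library. The deviations of same-numbered libraries from their genotype means correlated at 0.708 in PFC excitatory neurons and at 0.513 in D1 MSNs, over genes with at least 200 UMIs. Alternatives were edgeR with library sizes alone, DESeq2 1.42.0, no filter beyond 1 UMI, the replicate block, no library block, and each library left out in turn. GABA-marked cells and the replicate contrast with no genotype covariate were added after seeing the data.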

Additional observations from a re-analysis of the deposited data

How the results depend on the processing

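Of 1615 recomputed values of single members, 1549 kept their direction and their side of the threshold, 25 lost the call, 20 gained it and 21 turned direction. Of 130 recomputed counts of called members, 117 stayed within 1.5 times the first value. With the replicate block, which pairs the libraries of 1 replicate number, 0 members were called for genotype in the PFC types, the subtypes and the striatal types, and it changed no other call of a member, while 26 tests over all genes were called in the PFC types and 79 in the striatal types. Leaving out 1 library gave 0 to 2 genotype calls in the PFC types, 0 to 8 in the subtypes, 0 to 1 in the striatal types and 0 to 2 for the interaction between PFC excitatory and inhibitory neurons. That interaction gave 1 call with no filter and 1 with GABA-marked cells, and the layer contrast gave 4 calls in place of 7 with no library block. The replicate contrast could be fitted without 1 library only when the genotype covariate was dropped as well, and then called up to 7 members in PFC excitatory neurons (without WT replicate 1). The cause was not tested.

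Some genotype estimates of members turned direction when 1 library was left out, and their ranges over the libraries left out are given in log2 units. In PFC excitatory neurons Syp ran from -3.43 to 1.73, Syngr1 from -1.39 to 0.51 and Rab26 from -0.82 to 0.065. In PFC inhibitory neurons Syp ran from -3.65 to 1.23, Syngr1 from -1.91 to 0.72 and Rab26 from -0.74 to 1.03. In the striatum Syp ran from -0.022 to 0.29 in D1 MSNs, from -0.13 to 0.28 in D2 MSNs and from -0.25 to 0.26 in inhibitory cells, where Syngr1 ran from -0.068 to 0.10. In striatal inhibitory cells Syp was 0.0049 with the replicate block and Syngr1 -0.028 with library sizes alone. Against GABA-marked cells, MSNs turned for Sv2b (1.87), Rab26 (0.31), Sh3gl2 (0.035), Unc13b (0.025) and Syn3 (-0.088).

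With 2 libraries per genotype, the number of pools limits the precision of every genotype difference, and Syn3, Doc2b and Sv2c rest on few UMIs in PFC excitatory neurons.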
